A study of Homo sapiens with 7 samples.

Results

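The TCP1 ring complex, also called TRiC or CCT, is the chaperonin of the eukaryotic cytosol, and its 8 subunits are encoded by TCP1 (α), CCT2 (β), CCT3 (γ), CCT4 (δ), CCT5 (ε), CCT6A (ζ), CCT7 (η) and CCT8 (θ). The genes were chosen by name, as the canonical subunits. The rule uses no measured value, although it was set with earlier results of these data known. They are 8 of the 26175 genes listed with an RNA-seq value, and 7 of the 10391 gene transcription start sites (TSSs) called from Start-seq were theirs. The cells are labelled T-47D, an established human luminal breast cancer line. The paper calls them T47D/A1-2, a derivative that overexpresses rat glucocorticoid receptor and carries an integrated MMTV-driven luciferase reporter, so the values describe a modified line. The cells were grown with 10% serum and then held in 5% stripped serum for at least 24 hours. With 1 growth condition there was no treated group and no control group. Start-seq, which sequences short capped nuclear RNA so that the 5′ end of a read marks a TSS, was read here as called positions from replicate 1. RNA-seq was read as 1 value per gene in FPKM, a fragment count scaled by transcript length and by sequencing depth, over 3 replicates that the authors merged. No value therefore has an error between replicates, no difference below was tested, and the read depth behind each call is unknown.

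The assembled chaperonin is a pair of stacked rings, each holding every subunit once in a fixed order. Unfolded proteins enter the central cavity, and a cycle of ATP binding and hydrolysis closes a built-in lid over them. Actin and tubulin are its best known clients. Prefoldin delivers nascent chains to the ring, and phosducin-like proteins act with it as cofactors. Each subunit is the product of its own gene, and these genes lie apart from each other in the genome.

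The bases around the start of each gene are shown first, because every promoter result below is measured from them. Each line holds 20 nts upstream of the start and 10 nts from it, in hg19 on the strand of the gene, with the bases at −1 and +1 in capitals. For CCT7, which had no called gene TSS, the annotated start was used.
TCP1, chr6:160210630-160210659, minus strand: aagcgggtggggtggtgtgTTacccagtag
CCT2, chr12:69979256-69979285, plus strand: cacgagctgtgaggggattCActtgtgtgc
CCT3, chr1:156307999-156308028, minus strand: aaggttctgccggttccccCAgctctgggt
CCT4, chr2:62115740-62115769, minus strand: cgacgccggcgccgctttcTGgaaggttcg
CCT5, chr5:10250372-10250401, plus strand: ccctcccgagaaagggaagTGcattctcgc
CCT6A, chr7:56119500-56119529, plus strand: tgggcactcagcatcgtttCCttttcctcc
CCT7, annotated start, chr2:73461416-73461445, plus strand: gtatttctattgcgcgaggCAttgtgggtt
CCT8, chr21:30445977-30446006, minus strand: cggccccacgctgctttccCAgaaggctgt

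CCT2, CCT3 and CCT8 started at CA, and CCT4 and CCT5 at TG. These are the pyrimidine-purine dinucleotides typical of initiator-like starts, found at 5 of the 7 called starts and at 66.1% of all gene TSSs. TCP1 started at TT, which lacks the purine. CCT6A started at CC, with its +1 cytosine followed by a run of T and C. A C at +1 followed by T, the first letters of a polypyrimidine start, occurred at 7.21% of all gene TSSs and at 1 of the 7 called starts. The annotated start of CCT7 also reads CA.

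All 8 subunit genes were among the most abundant transcripts of these cells. CCT3, the γ subunit, was highest with an FPKM of 265, rank 169 of the 26175 listed genes. CCT2, the β subunit, followed with an FPKM of 212, and CCT5, the ε subunit, with 182. The values for CCT6A (ζ) and CCT7 (η) were next to each other in the order, at 169 and 167. TCP1 (α), the subunit that gave the complex its name, had an FPKM of 119. CCT4 (δ) and CCT8 (θ) were lowest, both at 116 after rounding, with CCT8 at rank 744.

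An FPKM of at least 100 was reached by 8 of the 8 subunit genes and by 3.51% of all listed genes. Their median was 168, against 0.528 over all listed genes, of which 7888 were listed at 0. Among the 9790 genes with a called gene TSS assigned to them the median FPKM was 16.5, and the subunit median was 10.2-fold higher. The 8 genes lay between the 97.16th and the 99.36th percentile of all listed genes. Summed, they had an FPKM of 1346, or 0.314% of the FPKM summed over the table.

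**Figure D1:**
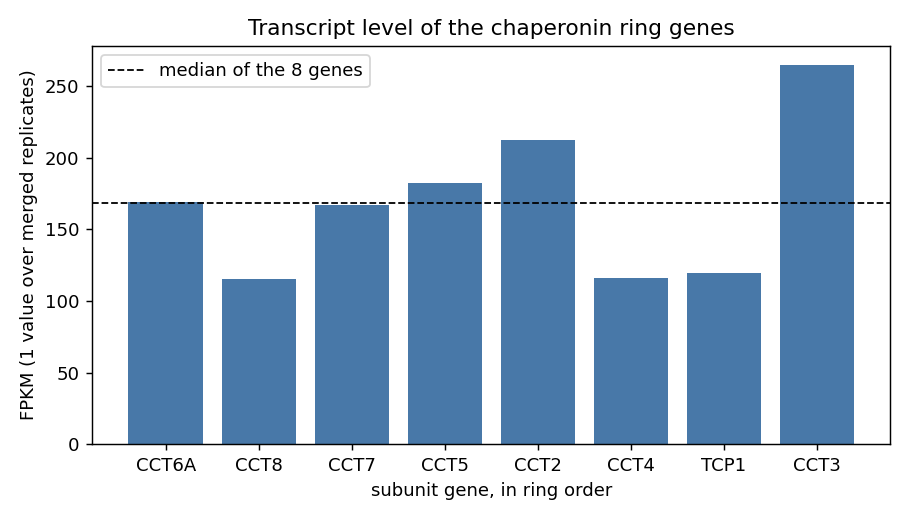
FPKM (linear axis from 0, 1 value per gene over the merged RNA-seq replicates, no error bars) of the 8 subunit genes, placed in the order of the subunits around the ring, with a dashed line at their median. CCT3 is highest at 265 and stands beside TCP1 at 119, while CCT4, TCP1 and CCT8 sit close together below the line.

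The subunits stand in equal number in the complex, and their transcript levels lay within a 2.29-fold range, with an SD of 0.44 on the log2 scale over the 8 genes. CCT3 made up 19.7% of the summed subunit FPKM and CCT8 made up 8.58%. The levels fell into a lower set of CCT8, CCT4 and TCP1, which differed by at most 1.03-fold, and an upper set of the other 5 genes. The gap between TCP1 and CCT7, 1.4-fold, was the largest step in the order. Because each gene has 1 value, neighbours in this order cannot be told apart by any spread between replicates.

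Genes whose products touch in the ring did not always have like levels. With the subunits placed in their known order, the neighbours TCP1 and CCT3 differed most, by 2.22-fold, and CCT2 and CCT4 by 1.82-fold. CCT4 and TCP1 differed by 1.03-fold, CCT7 and CCT5 by 1.09-fold, and CCT5 and CCT2 by 1.16-fold. The pairs of CCT6A with CCT8, CCT8 with CCT7 and CCT3 with CCT6A differed by 1.46-fold, 1.45-fold and 1.57-fold.

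Other genes lie at the same loci. The 3′ end of TCP1 shares 454 nts of exon with ACAT2 on the opposite strand, a cytosolic acetyl-CoA acetyltransferase gene with an FPKM of 77.1. The RNA-seq libraries kept strand, per the labels, but whether the FPKM estimate used strand is not given in the sources used here. Without it, reads from the shared stretch could not be told apart between the genes. The table placed TCP1 in 1 merged locus with ACAT2, CCT3 with TSACC and CCT6A with the small nucleolar RNA gene SNORA15, which was listed at 0. The annotation holds 14 pseudogenes named after subunit genes, of which 4 belong to CCT6 and 2 each to TCP1, CCT4, CCT5 and CCT7. Only 2 of them had a row of their own, CCT6P1 with an FPKM of 2.13 and CCT6P3 with 0.783. How reads shared with the pseudogenes were divided is not known, and the part of these overlaps in the levels was not tested.

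The subunit levels were compared with those of related gene lists, as counts and medians only. The nearest match was another ring of fixed composition, the 20S core of the proteasome. Its 14 genes had a median FPKM of 162 and 11 of them reached 100, but they ranged 13.8-fold, from PSMB2 at 31.1 to PSMB4 at 430. Their log2 SD was 1.07. Prefoldin, the hexamer that hands clients to the chaperonin, had a median of 89.1 over 6 genes and ranged 20.7-fold, from PFDN4 at 22.9 to PFDN5 at 474. The chaperonin genes thus spanned the narrowest range of the 3 complexes, with the size of that difference not tested.

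Several clients of the ring reached higher levels than its subunits. Among 13 actin and tubulin genes, the median FPKM was 105, and 6 genes lay above CCT3, with β-actin (ACTB) highest at 878 and TUBB2B lowest at 0.763. The tubulin cofactors, which act on tubulin after its release from the ring, had a median of 49.3 and ran from TBCC at 31.0 to TBCA at 118. The 4 phosducin-like genes were lower still, with a median of 22.5 and a highest value of 37.5 for TXNDC9, while PDCL2 had 0.0179.

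Relatives of the subunits by descent were far below them. CCT6B, the paralog of CCT6A described in testis, had an FPKM of 3.30 against 169 for CCT6A. CCT8L2 was listed at 0. MKKS, a chaperonin-like Bardet-Biedl syndrome gene, was highest of the 5 paralogs at 20.4, and BBS12 had 0.798. In mitochondria the chaperonin work is done by HSPD1, which had an FPKM of 160, within the range of the subunit genes, and by its lid HSPE1, which had 44.6. The cytosolic HSP70 and HSP90 machinery had a median of 50.1 over 11 genes and ranged 369-fold, from HSPA2 at 1.79 to HSPA8 at 661. HSF1, the main heat shock transcription factor, had an FPKM of 60.9 and HSF2 had 9.21.

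**Figure D2:**
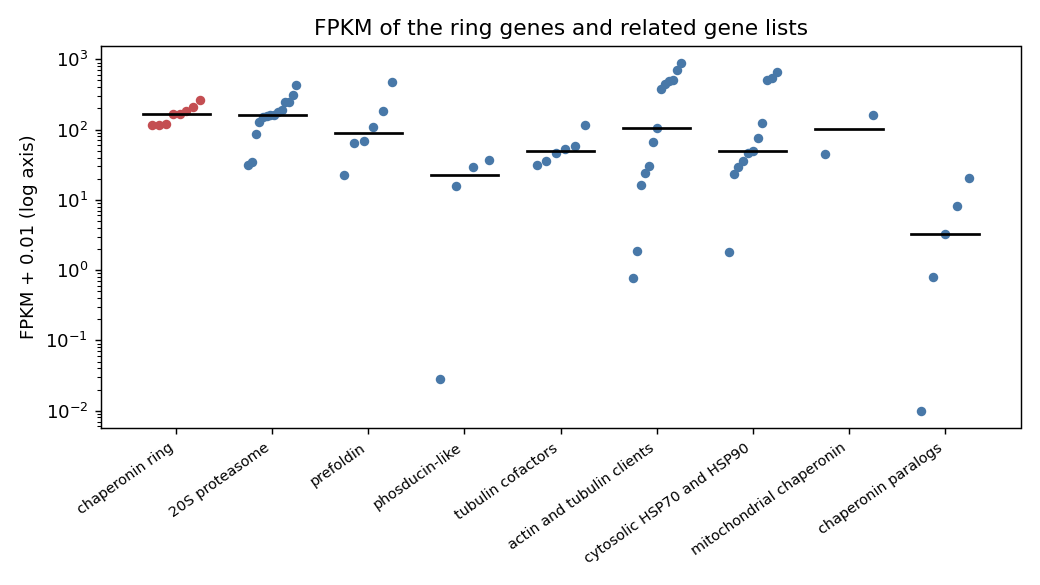
FPKM plus 0.01 (log axis) of every gene in the chaperonin ring (red) and in 8 related lists (blue), 1 point per gene from the merged RNA-seq values, with a horizontal bar at each list's median. The 8 red points form the tightest column at a median of 168, next to the 20S proteasome at 162, whose points spread over a 13.8-fold range.

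The labelled cell type was checked with markers. The 9 luminal breast epithelial markers had a median FPKM of 230, from ESR1 at 44.1 to KRT8 at 1140. The 4 basal or mesenchymal markers were all under 1, with VIM highest at 0.864. Of the immune markers, CD3E was listed at 0, and both endothelial markers were under 1.

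A gene TSS was called for 7 of the 8 subunit genes. Of the 913 genes at an FPKM of at least 100 that matched the annotation by name, 90.9% had one. CCT7 was the exception, at an FPKM of 167.

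The called starts lay close to the annotated ones of the MANE Select transcripts, the reference isoform of each gene. The start of CCT5 was called at position 10250392 of chromosome 5, exactly at the annotated start. TCP1 was called at 160210639 on chromosome 6, 5 nts upstream of its annotated start, and CCT8 at 30445986 on chromosome 21, 17 nts upstream. The other 4 were called downstream of the annotated start, and so inside the annotated first exon. These were CCT2 at 69979276 on chromosome 12, 37 nts in, and CCT4 at 62115749 on chromosome 2, 42 nts in. CCT6A was called at 56119520 on chromosome 7, 62 nts in, and CCT3 at 156308008 on chromosome 1, 75 nts in. Over the 9543 gene TSSs with such a transcript, the median offset was 4 nts downstream, with quartiles at 3 nts upstream and 44 nts downstream, and 56.3% lay downstream.

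A later start leaves a shorter leader before the start codon, which lies in exon 1 of all 8 genes. From the called start, the leader of CCT6A was 22 nts, that of CCT2 26 nts and that of CCT3 33 nts. Read from the MANE starts, the same leaders would be 84, 63 and 108 nts. Other annotated starts lay nearer to the call at CCT3, 3 nts away, and at CCT2, 24 nts away, but not at CCT6A. The leaders were counted from called positions and were not measured on mRNA. CCT5 had 61 nts, CCT8 75 nts, CCT4 107 nts and TCP1 139 nts, the longest of the 7 leaders.

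Antisense initiation upstream, called as a uaTSS within 1000 nts on the opposite strand, was found at TCP1, CCT2, CCT3 and CCT8. That is 4 of 7 called starts, against 53.1% of all gene TSSs. The distances were 185 nts at CCT2, 205 nts at CCT8, 314 nts at TCP1 and 325 nts at CCT3, with a median of 259.5 nts. Over all 5519 uaTSSs the median was 200 nts, with quartiles at 127 and 329.5 nts. All 4 distances lay between those quartiles.

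Antisense initiation downstream, called as a daTSS within 2000 nts, was found only at CCT4 among the 7, against 28.4% of all gene TSSs. CCT4 was the single subunit gene with a daTSS and no uaTSS. Its daTSS lay at 62115540 on the plus strand of chromosome 2, 209 nts downstream of the gene TSS and inside the coding part of exon 1. Among all daTSSs this distance was at the 12.0th percentile, and the median was 507 nts. CCT5 and CCT6A had neither antisense call, as did 35.9% of all gene TSSs.

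The antisense starts of the subunit genes are shown with the same layout, 20 nts before and 10 nts from the start with −1 and +1 in capitals, read on the antisense strand, because they can be set against the sense starts above.
CCT2 uaTSS, chr12:69979082-69979111, minus strand: agggggcgtggccgccgctCCagaacaaag
CCT3 uaTSS, chr1:156308313-156308342, plus strand: tggcagttggccagcacacCActacgcatg
CCT4 daTSS, chr2:62115520-62115549, plus strand: ggcggcggaaatgttgctgAAgcggatctg
CCT8 uaTSS, chr21:30446171-30446200, plus strand: acgcgcagacagcccaggcCGtgagaggtt
TCP1 uaTSS, chr6:160210933-160210962, plus strand: gtggagcttggagctggggTGtaactggag

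In the capital letters, the uaTSSs of CCT3, CCT8 and TCP1 had a pyrimidine just before the start and a purine at it. The uaTSS of CCT2 and the daTSS of CCT4 did not. The share of such starts among all uaTSSs or all daTSSs was not computed. Whether these antisense starts differ from others of their kind, or from the sense starts, was therefore not tested.

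Some calls named antisense fell on starts that the annotation gives to other genes. The uaTSS of CCT3 lay 16 nts downstream of the annotated start of TSACC, a gene on the opposite strand with an FPKM of 2.86 and no gene TSS assigned to it. The uaTSS of TCP1 lay 35 nts downstream of the start of an isoform of MRPL18 (MRPL18-203), a mitochondrial ribosomal protein gene with an FPKM of 73.5 and likewise no gene TSS. The MANE start of MRPL18 was 546 nts downstream of this call. The uaTSS of CCT8 had its nearest annotated start on the same strand 3351 nts away, and that of CCT2 had it 488 nts away, at the microRNA gene MIR3913-2. The daTSS of CCT4 lay 319 nts upstream of the start of an isoform of COMMD1 (COMMD1-208) on its strand. The MANE start of COMMD1 was 17269 nts away. The paper removed daTSSs within 1000 nts of an annotated start on their strand, and its annotation was RefSeq. Whether the CCT3 and TCP1 calls belong to antisense RNA or to the neighbouring genes cannot be told apart from positions.

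CCT5 and CCT6A shared their promoter regions with called genes on the opposite strand. The start of ATPSCKMT, listed as FAM173B with an FPKM of 12.8, lay 389 nts upstream of that of CCT5. The start of PSPH, which encodes phosphoserine phosphatase and had an FPKM of 16.1, lay 383 nts upstream of that of CCT6A. The chaperonin gene was the more abundant of each pair, with FPKM of 182 and 169. Such a divergent gene TSS within 1000 nts was present at 2 of the 7 subunit starts and at 11.5% of all gene TSSs, with a median separation of 267 nts. The 2 divergent subunit starts were also the ones with neither antisense call. Over the whole series, 16.2% of gene TSSs with a divergent partner had a uaTSS, compared with 57.9% of the others. Among the subunit genes the counts were 0 of 2 and 4 of 5. A called partner start lies on the antisense strand within the 1000 nts searched for a uaTSS and needs the same 5 reads. The lower share therefore does not show less antisense initiation. How such starts were kept out of the uaTSS calls was not tested.

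The starts of the divergent pairs are shown in the same layout for the partner genes.
ATPSCKMT, partner of CCT5, chr5:10249994-10250023, minus strand: ttttttttttttttaaaaaCGctgttggaa
PSPH, partner of CCT6A, chr7:56119128-56119157, minus strand: ctcgcggtttgttccgtttCAttggagctt

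At CCT7 the only calls in the locus widened by 1000 nts belonged to the neighbour PRADC1. Its gene TSS lay on the minus strand 1065 nts upstream of the annotated start of CCT7. PRADC1 had an FPKM of 23.1. The uaTSS called for PRADC1 lay 264 nts from that start on the plus strand, which is the strand of CCT7. This position was 801 nts upstream of the MANE start of CCT7 and 48 nts downstream of the start of a longer CCT7 isoform, CCT7-214. The bases at this call, in the layout used above, are shown because they are the only called start on the strand of CCT7.
PRADC1 uaTSS, chr2:73460615-73460644, plus strand: gcgggccagggaggacaagCActggaggtg

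The first bases of CCT7 were searched in the genome as exact words, because the calls rest on uniquely mapped reads. All 100 of the 30-nt words that begin in the first 100 nts from its annotated start occurred once in GRCh37. The same held at the annotated and called starts of the other 7 genes. Copies with mismatches and bases outside these stretches were not searched, so the part of mapping in the missing call was not tested. Start-seq reads were not analysed here, so whether CCT7 fell under the threshold of 5 reads at every position, or was assigned otherwise, was not tested.

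**Figure D3:**
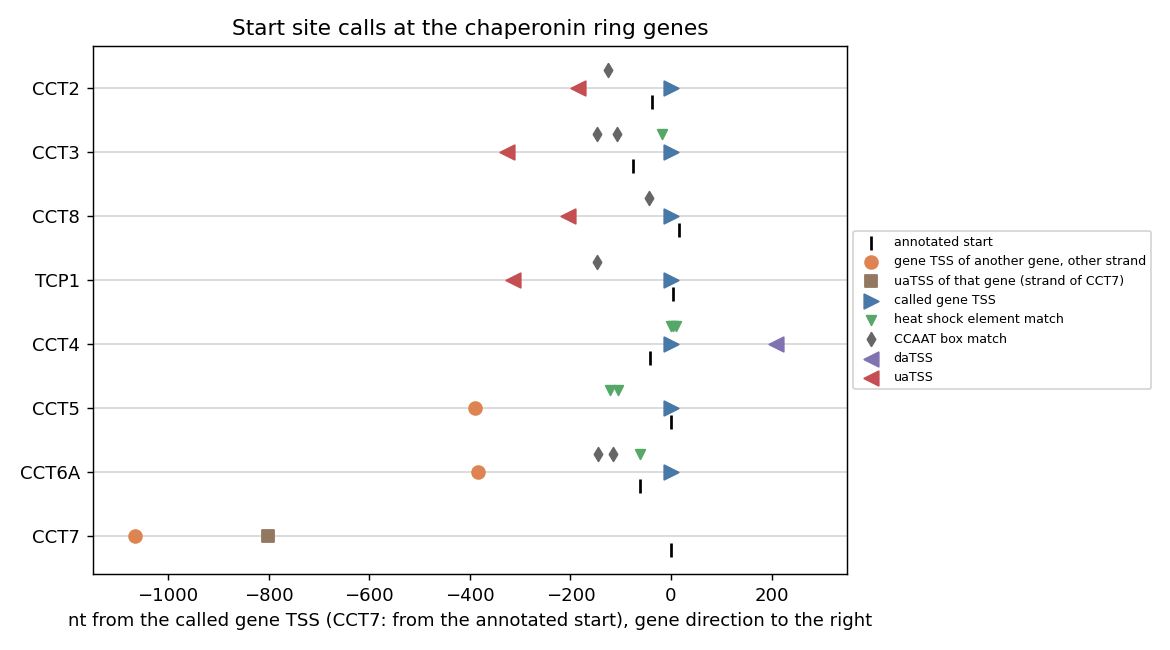
Map of the calls at each subunit gene, with distance in nt from its called gene TSS on the x axis (for CCT7, from the annotated start) and the gene running to the right. Triangles are gene TSSs (blue), uaTSSs (red) and the CCT4 daTSS (purple), circles are starts of other genes on the opposite strand, the square is the PRADC1 uaTSS, ticks are annotated starts, and small symbols mark heat shock element (green) and CCAAT (grey) matches. CCT2, CCT3, CCT8 and TCP1 have a uaTSS from 185 to 325 nts upstream. CCT5 and CCT6A have the gene TSS of a partner and no uaTSS, and CCT7 has no blue triangle.

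Promoter sequence was searched from 200 nts upstream to 50 nts downstream of each called start, on both strands. The heat shock element, the site of HSF1, is built from inverted GAA units. It was searched as a single inverted pair of units, GAANNTTC or TTCNNGAA, each of which is its own reverse complement. A match was present at CCT3, CCT4, CCT5 and CCT6A. That is 4 of the 7 called starts, against 7.30% of all gene TSSs. A match of letters is a description of the sequence and does not show a full HSF1 site, and no binding was measured. Below, a start said to have the element has such a match.

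Because the matches of the 4 genes differ in number and place, 30 nts around them are printed for CCT3, CCT4 and CCT6A, with the heat shock element in capitals.
CCT3, chr1:156308011-156308040, minus strand: ctctctctccaGAAGGTTCtgccggttccc
CCT4, chr2:62115730-62115759, minus strand: gccgctTTCTGGAAGGTTCGTGAAggcagt
CCT6A, chr7:56119443-56119472, plus strand: cgggccgacttTTCCAGAAgacccggatag

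In CCT4, 3 matches overlapped in a single run of 18 nts of alternating TTC and GAA units, from position −4 to position 14, so that the called start lay inside it. At least 3 matches occurred at 8 of all gene TSSs, and CCT4 was the only subunit gene among them. CCT5 held 2 matches, starting at −125 and −108. At least 2 matches occurred at 0.722% of all gene TSSs. CCT3 held 1 match at −21, and its letters GAAGGTTC also occur in the run of CCT4. CCT6A held 1 at −66, with the letters TTCCAGAA that CCT5 holds too.

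Matches were present at other chaperone genes as well. In the HSP70 and HSP90 list, 7 of 12 called gene TSSs had a match, including those of HSPA1A and HSPA1B. HSPE1 had one, as did VBP1 alone among the 5 called prefoldin TSSs. Among the actin and tubulin genes, 1 of 11 TSSs had a match. None of the 12 called TSSs of the 20S proteasome had one, and neither had those of the chaperonin paralogs (4 called), the phosducin-like genes and the tubulin cofactors (3 each) or the heat shock factors (2).

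The CCAAT box, the recognition sequence of NF-Y, was the most frequent match at the subunit genes. It was present at TCP1, CCT2, CCT3, CCT6A and CCT8, which is 5 of 7 against 31.7% of all gene TSSs. CCT3 held copies at −150 and −109 and CCT6A at −148 and −118. TCP1 held one at −149, CCT2 at −128 and CCT8 at −46. With only 100 nts upstream searched, CCT8 alone kept its match. In the related lists, CCAAT was found at 8 of 11 actin and tubulin TSSs, 6 of 12 of the HSP70 and HSP90 list, 5 of 12 of the 20S proteasome and 2 of 4 of the chaperonin paralogs. The phosducin-like genes and the tubulin cofactors each had it at 2 of 3 and the heat shock factors at 2 of 2. Prefoldin had it at 0 of 5 and the mitochondrial chaperonin at 0 of 2.

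Every called subunit start had a heat shock element or a CCAAT box, and so did 36.6% of all gene TSSs. CCT3 and CCT6A had both, as did 2.35% of all gene TSSs. CCT4 and CCT5 had the heat shock element without CCAAT, and TCP1, CCT2 and CCT8 had CCAAT without the heat shock element. These combined counts were formed after the single motifs had been seen. At the annotated start of CCT7 neither was found.

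For TCP1, CCT2 and CCT3, whose CCAAT boxes lie outside annotated exons, the stretch of the 200 nts upstream that no annotated exon covers is printed. CCAAT (or its complement ATTGG) and the GC box (or its complement CCGCCC) are in capitals.
TCP1, chr6:160210736-160210839, minus strand: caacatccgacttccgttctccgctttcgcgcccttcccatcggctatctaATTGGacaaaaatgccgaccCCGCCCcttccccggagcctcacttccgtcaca
CCT2, chr12:69979076-69979205, plus strand: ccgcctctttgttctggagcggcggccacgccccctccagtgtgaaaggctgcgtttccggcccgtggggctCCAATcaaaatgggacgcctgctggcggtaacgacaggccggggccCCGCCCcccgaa
CCT3, chr1:156308103-156308208, minus strand: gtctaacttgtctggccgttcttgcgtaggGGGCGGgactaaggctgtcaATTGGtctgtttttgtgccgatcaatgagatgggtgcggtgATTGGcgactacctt

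The other motifs were at or under their background shares. The GC box GGGCGG, a site of Sp1-type factors, was found at TCP1, CCT2, CCT3 and CCT8, or 4 of 7 against 68.9% of all gene TSSs. The ETS letters CCGGAAG were found at CCT2, at −52, and at 18.4% of all gene TSSs. The NRF1 letters GCATGCGC (5.13% of all gene TSSs), the YY1 letters GCCATNTT (9.73%) and the E-box CACGTG (8.43%) were found at 0 of the 7. No subunit start had TATAA between 40 and 20 nts upstream on its own strand, as was the case for all but 2.46% of gene TSSs. With so few starts, 0 matches says only that these letters are not in these windows.

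**Figure D4:**
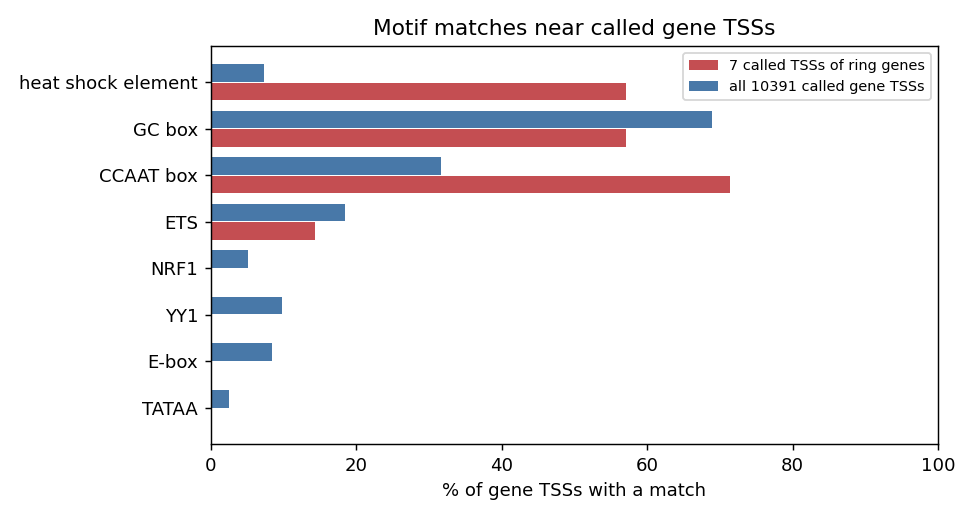
Percentage of called gene TSSs with at least 1 match to each motif (x axis, 0 to 100%) for the 7 called starts of the subunit genes (red) and for all 10391 gene TSSs (blue). The red bar is far longer for the heat shock element (4 of 7 against 7.30%) and the CCAAT box (5 of 7 against 31.7%), and is missing for NRF1, YY1, E-box and TATAA.

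Like most gene TSSs, the called subunit starts were CpG-rich. All 7 called starts had a GC content of at least 50% and a ratio of observed to expected CpG over 0.6 in the window, as had 85.0% of all gene TSSs. Their median GC content was 65.6%, against 67.2% over all gene TSSs. CCT6A was highest at 70.8%, followed by CCT4 at 70.0%. CCT3 at 57.6% and CCT5 at 54.4% were lowest, at the 16.8th and 10.4th percentile of all gene TSSs. In CpG ratio, CCT4 was highest at 1.12, percentile 94.7, and CCT3 lowest at 0.688, percentile 20.3 of all gene TSSs. The annotated start of CCT7 had a GC content of 60.4% and a ratio of 0.877.

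**Figure D5:**
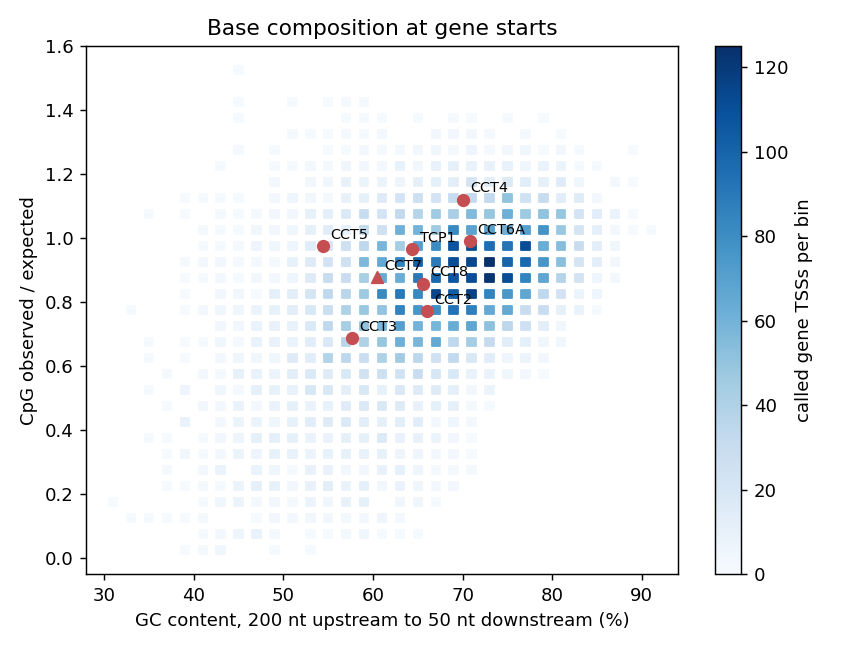
GC content (x axis, %) against the ratio of observed to expected CpG (y axis) from 200 nts upstream to 50 nts downstream of gene TSSs, with all 10391 gene TSSs as blue bins shaded by their number and the subunit genes as red circles (CCT7 at its annotated start as a triangle). CCT5 and CCT3 lie toward lower GC content, at 54.4% and 57.6%, and CCT4 lies toward the upper edge in CpG ratio, at 1.12.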

How the data were processed

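TSS calls came from 1 Start-seq library (replicate 1 of 2) and transcript levels from RNA-seq. The other Start-seq library and the MNase-seq and FAIRE-seq samples did not enter. In the deposited lists of calls the score is 0 throughout, so only position, strand and identifier were used. Per the study's methods, the authors trimmed reads with cutadapt 1.2.1, aligned them to hg19 with Bowtie 0.12.8 and called a TSS where the 5′ ends of uniquely mapped reads reached 5 at 1 position, in windows around RefSeq starts. The FPKM values were deposited by the authors after TopHat2 2.0.4, Picard 1.118 duplicate removal, merging of 3 replicates and Cufflinks 2.2.1. The table had 0 columns of per-sample values.

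Loci of the table were widened by 1000 nts and joined to calls by position, and antisense calls by identifier. A gene TSS was assigned to the gene with the nearest annotated start. Sequence came from GRCh37 and transcripts from GENCODE lifted to GRCh37. Log2 values used a pseudocount of 0.1. The motif search, with the GC box and NRF1 letters only, and the 30-nt word search were tested on simulated data. The heat shock element, CCAAT and the other motifs were not part of that check. Python 3.11.15, numpy 2.4.6, pandas 2.3.3, pysam 0.24.0 and matplotlib 3.10.9 were used.

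The genes, lists and motifs were chosen with earlier results of these data known. Named genes are the 8 subunit genes, other genes with a call in their loci, and the highest and lowest of each list. Further genes (HSPA1A, HSPA1B, HSPD1, CCT6B, BBS12, VBP1, MRPL18, TSACC, the pseudogenes) were named after their values were seen. No test was made, as each measure has 1 value per gene. The planned comparison of subunit proteins was not analysed here, and some items are not reported here. Alternatives changed the locus width, the way calls were joined, the distances, the pseudocount, the genes ranked and the sequence window.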

Additional observations from a re-analysis of the deposited data

How the results depend on the processing

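Of 26 alternative values computed, 22 stayed close to the reported ones and 4 moved. The median FPKM percentile of the subunit genes, 98.41 among all listed genes, was 96.61 among genes with an FPKM of at least 1 and 96.05 among genes with a called gene TSS. With 100 nts upstream searched, 1 of the 7 starts had a GC box (CCT2) and 1 a CCAAT box (CCT8), when the shares of all gene TSSs were 54.8% and 21.1%. The heat shock element was then found at 3 starts, without CCT5, against 4.36% of all gene TSSs. With 500 nts it was found at 5, with TCP1 added, against 18.4%. Counts of gene TSSs, uaTSSs, daTSSs and divergent partners were the same under every alternative run. No paired analysis was possible because each measure has 1 value per gene. The depth behind calls and FPKM is unknown, so an absent call is no evidence of absent transcription.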

Other observations

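At least 3 matches to the heat shock element within 200 nts upstream and 50 nts downstream of the start were rare, and the gene TSSs that had them were looked up after their number had been seen. Beside CCT4 they were those of CHORDC1, DNAJA1, HSP90AA1, HSPA6, HSPE1, HSPH1 and NXT2. CHORDC1, whose product works with HSP90, held 6 matches, and the other genes held 3 each. DNAJA1, HSP90AA1, HSPA6, HSPE1 and HSPH1 encode a J-domain protein, an HSP90, an HSP70, the mitochondrial chaperonin lid and a large HSP70 relative, and NXT2 belongs to RNA export. CCT4 was the only gene of the cytosolic chaperonin on this list.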
